A study of Mus musculus with 8 samples.

Results

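Peaks were called in p53 chromatin immunoprecipitation and sequencing (ChIP-seq) of mouse alveolar organoids, and 765 regions with such peaks are described here. Each had a peak in both libraries of organoids treated with bleomycin (BLM) and no peak in either control (CTRL) library. None overlapped the authors' list of BLM-enriched regions. The regions were chosen by these calls. Peaks of the 4 libraries that overlapped by at least 1 bp were joined, which gave 63268 regions. Of these, 1286 (2.03%) had a call in each BLM library and none in CTRL. Of the 1286, 521 overlapped the enriched list and 765 (1.21% of all joined regions) did not. The CTRL lists were the longer, with 50430 and 48743 peaks, against 39577 and 41451 in the BLM lists. In the reverse pattern, 5312 regions had a call in each CTRL library and none in BLM. The count of 765 depends on the calling: it was 1496 when all lists were cut to the same length. With a −log10 q of at least 5 asked of every peak, 356 of the 765 (46.5%) remained. Since the choice rests on peak calls, every height, width and call below is a description, and no test between conditions was made.

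The organoids were grown from alveolar type 2 (AT2) cells of wild-type mice. They were kept for 24 h with DMSO, the vehicle of the CTRL group (2 libraries), or with 100 μM BLM (2 libraries). The study states that the ChIP-seq data came from 2 independent mice, without saying from which mouse each library was made. An input library was made beside each of the 4 p53 libraries, and inputs were not analysed here. Peak lists hold no RNA levels, so the labelled cell type could not be checked against its markers. They also come from whole organoids, so that binding in fewer cells and weaker binding per cell cannot be told apart.

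Bleomycin breaks DNA. DNA breaks stabilise p53, a transcription factor that halts the cell cycle, promotes repair, or triggers apoptosis or senescence. It binds DNA as a tetramer, and its response element is a pair of adjacent decamers, each with a core that starts with C, ends with G and has A or T between them.

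Of the 765 regions, 2 (0.261%) covered a transcription start site (TSS) whose position could be derived from the deposited gene table. The share was 0.218% for regions called in 1 BLM library only and 1.19% for all regions outside the enriched list. Wider regions cover a TSS more readily, and the median widths of these sets were 229, 157 and 345 bp in that order. The 2 regions lay at *Grhl3*, a grainyhead-like transcription factor of epithelial barriers, and at *Krt23*, a type I keratin. The region at *Grhl3* (GRCm39, chr4:135300870-135301087) reached from 146 bp upstream to 71 bp downstream of the TSS, with a fold enrichment of 6.09 in BLM replicate 1 and 4.44 in BLM replicate 2. The region at *Krt23* (GRCm39, chr11:99383778-99384196) reached from 233 bp upstream to 185 bp downstream, with fold enrichments of 6.95 and 5.42. In both regions BLM replicate 2 was the lower.

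The promoters of these genes are shown because they are the only gene starts that the 765 regions covered among the genes placed here. The sequences are from RefSeq on GRCm38.p6 and run from 250 bases before to 50 bases after the RefSeq start, which may differ from the TSS of the gene table. Both genes are on the minus strand, at chr4:135573583-135573882 for *Grhl3* and chr11:99493071-99493370 for *Krt23*, and both sequences are written 5′ to 3′ along the gene. These positions are of another build than the peaks and were not converted. Capitals mark the p53 core letters, which are CATG or CTAG, each its own reverse complement, or else CAAG or its reverse complement CTTG, so that both strands were searched at once.
Grhl3: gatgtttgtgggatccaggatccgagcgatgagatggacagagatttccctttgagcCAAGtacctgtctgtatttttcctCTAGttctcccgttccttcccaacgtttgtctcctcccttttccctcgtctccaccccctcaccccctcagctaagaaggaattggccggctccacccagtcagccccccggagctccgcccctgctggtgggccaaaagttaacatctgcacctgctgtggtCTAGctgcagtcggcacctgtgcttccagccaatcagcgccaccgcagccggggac
Krt23: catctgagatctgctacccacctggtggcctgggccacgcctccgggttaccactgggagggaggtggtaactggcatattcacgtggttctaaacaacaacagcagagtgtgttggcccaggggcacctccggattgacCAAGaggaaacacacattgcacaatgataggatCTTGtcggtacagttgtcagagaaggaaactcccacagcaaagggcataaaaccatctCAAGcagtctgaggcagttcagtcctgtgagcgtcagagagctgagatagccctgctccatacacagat
Each promoter held 3 cores, and in neither did 2 decamer cores stand at the spacing of a full element. The p53 decamer (core, purines before it and pyrimidines after it) occurred in neither. Among 32851 RefSeq promoter windows of the same length, 98.0% held at least 1 core (median 4), 8.36% a decamer and 7.22% a pair of cores at that spacing. The missing match says only that these letters are not in these windows.

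In height, the 765 regions lay in the lower part of the BLM lists. A fold enrichment is the peak caller's ratio of a peak's signal over its background, and −log10 q is the significance of the peak in its own list. The fold enrichment ran from 3.23 to 12.1 in BLM replicate 1 (median 5.57) and from 3.12 to 10.9 in BLM replicate 2 (median 5.56). The median −log10 q was 6.24 and 6.10, with lowest values of 2.21 and 2.08 near the calling limit, which was just over 2 in every list. The medians of the set were alike in both libraries, while single regions often differed, as given below.

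Ranks within a list (percentiles by fold enrichment, 100 as the highest) place them against other calls. The median percentile was 32.1 in BLM replicate 1 and 31.5 in BLM replicate 2, against 75.0 and 73.5 for the 521 BLM-only regions in the enriched list. For regions called in 1 BLM library only and outside the enriched list (5495 regions), the medians were 23.1 and 23.0. For regions called in all 4 libraries and outside it (26030 regions), they were 62.5 and 63.7. The 765 regions thus ranked above calls made in a single BLM library and below the other 2 sets. The 5312 regions called in both CTRL and neither BLM library had a median percentile of 30.1 and 28.7 in the CTRL lists, which is close to the place of the 765 regions in the BLM lists.

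The spread around these medians was wide, and the sets overlapped. Both percentiles were above 50 in 64 of the 765 regions (8.37%), 1 of them was in 219, and neither in 482 (63.0%). In the enriched list, 343 of the 521 regions (65.8%) were above 50 in both lists. By the mean of both percentiles, 7 of the 765 (0.915%) reached the median of the 521 regions, which was 71.1. In the other direction, 36 of the 521 (6.91%) were at or below the median of the 765, which was 31.5. The plot of ranks in both BLM lists shows these sets.

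**Figure D1:**
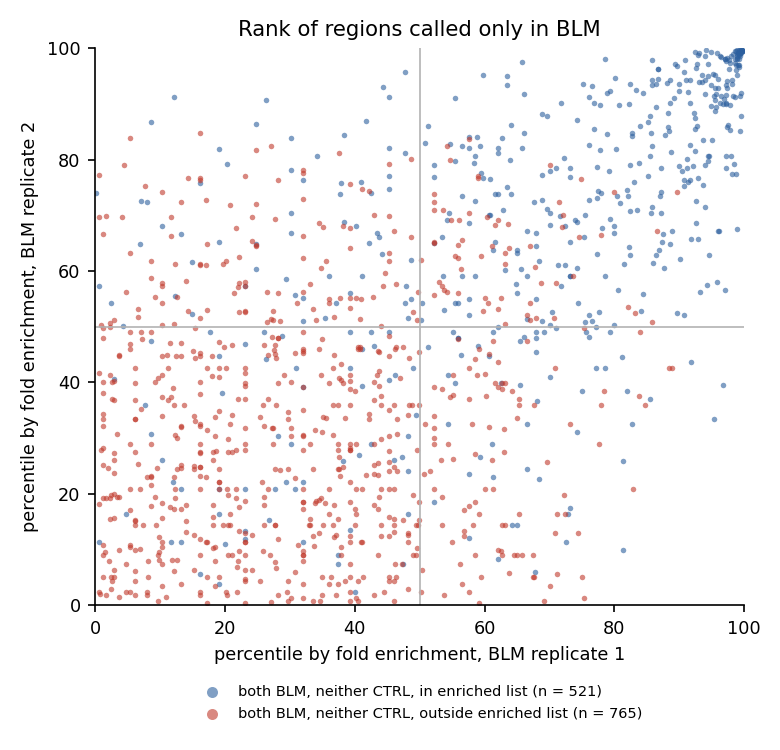
Percentile by fold enrichment of each BLM-only region in the list of BLM replicate 1 (x axis) and BLM replicate 2 (y axis); red points are the 765 regions outside the enriched list, blue points the 521 regions in it, and grey lines mark 50. Most red points (482) lie in the lower left square, 64 lie in the upper right one, and blue points crowd the upper right corner.

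The replicates agreed less on the height of these regions than on that of enriched ones. Over the 765 regions, Pearson's r between the percentiles of both BLM lists was 0.140 (Spearman's rho 0.124). Over the 521 enriched regions it was 0.585 (rho 0.658), and over the 5312 CTRL-only regions, between the CTRL lists, 0.214. All regions of a set share the same pair of libraries, the range of heights is narrower in the 765, and the values are given with no test. The percentiles of a region differed by a median of 18.5 points and by more than 25 points in 285 regions (37.3%). Neither library was the higher more often, since BLM replicate 1 was higher in 382 of 765.

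The summits of both BLM peaks lay a median of 37 bp apart (upper quartile 71 bp, highest 469 bp), and within 100 bp in 663 regions (86.7%). For the 521 enriched regions the median was 15 bp, with 504 (96.7%) within 100 bp. The overlap was a median of 93.5% of the shorter peak, against 100% in the enriched regions. It was under 50% in 61 of the 765 regions (7.97%) and in 2 of the 521 (0.384%), and the smallest was 8 bp. Those 61 regions rest on peaks of the 2 libraries that cover largely different bases.

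The 10 regions with the highest mean percentile were spread over several chromosomes. The highest, chr2:120511789-120511971, had fold enrichments of 12.1 and 8.996 (percentiles 89.7 and 74.2) and lay 71924 bp downstream of the TSS of *Haus2*, which encodes a subunit of the augmin complex of the spindle. The next, chr5:110715257-110715433, had 9.76 and 8.99 and lay 192 bp from a CTRL peak. The third, chr1:126901677-126901884, had 11.2 and 8.13. Even at the top of the set, the mean percentile fell quickly, from 82.0 to 70.3 at the tenth region. The genes placed here are only those assigned to an enriched region, so a nearer gene may have been missed. Among them, the gene start nearest to any of these 10 was that of *Tpp1*, a lysosomal peptidase. It lay 14812 bp upstream of chr7:105386471-105386630, which had 8.60 and 8.48.

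The regions were narrow. Their width ran from 132 to 861 bp, with a median of 229 bp and quartiles of 191 and 285 bp. The median was 267 bp for BLM-only regions in the enriched list, 304 bp for CTRL-only regions, 589 bp for regions called in all 4 libraries, and 157 bp for regions called in 1 BLM library only. A region built from 2 peaks is at least as wide as either peak, and the single peaks had a median width of 175 bp in BLM replicate 1 and 176 bp in BLM replicate 2. Over 400 bp, the length of 911 of the 915 enriched intervals, were 38 regions (4.97%). The widest, chr5:5392361-5393221, had fold enrichments of 3.97 and 4.15 and summits 469 bp apart, so its width comes from 2 low peaks that overlap by 153 bp. Of the next 4, chr8:92526048-92526606 (559 bp) lay 1937 bp downstream of the TSS of *Irx3* by the wider gene set described below. Another, chr7:102130141-102130692 (552 bp), lay 194 bp downstream of that of *Olfr543*.

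**Figure D2:**
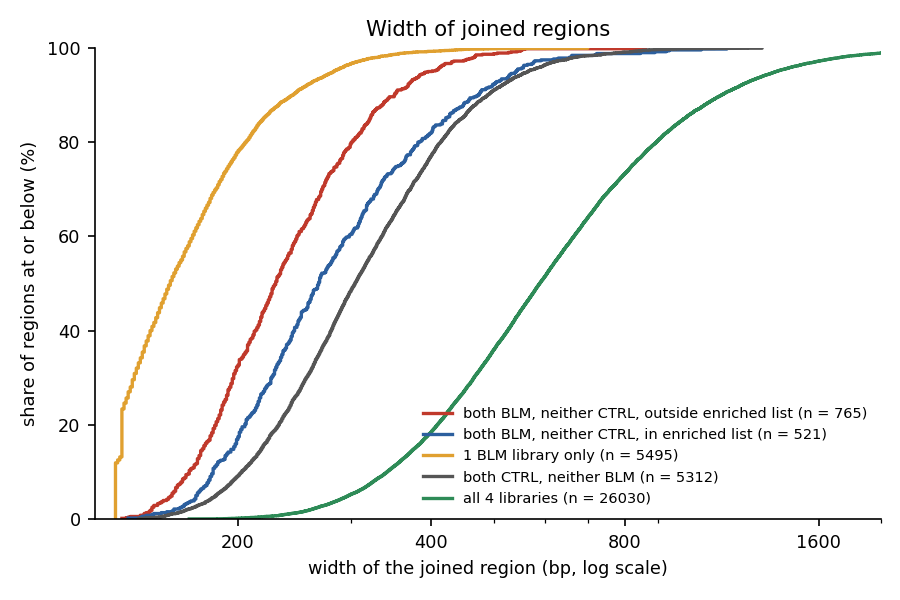
Share of joined regions (y axis, %) at or below a width (x axis, bp, log scale) for 5 sets of regions, 4 of them outside the enriched list. The 765 regions (red, median 229 bp) lie between regions of 1 BLM library (median 157 bp) and BLM-only regions in the enriched list (median 267 bp), and regions called in all 4 libraries are the widest (median 589 bp).

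By chromosome, the regions were spread much as all peaks were. They lay on chromosomes 1 to 19 and X, with 1 on an unplaced contig. None lay on Y, which held 2 joined regions, or on the mitochondrial genome, which held 11. For each of chromosomes 1 to 19 and X, the share of all 63268 regions lay inside the 95% Wilson interval of the share of the 765. The interval covers the counting of regions only. The ratio of both shares was highest on chromosome 17 (39 regions, 1.28), 15 (43 regions, 1.28) and 12 (41 regions, 1.27). It was lowest on X (14 regions, 0.705) and on chromosome 2 (45 regions, 0.781). The regions were also far from each other: neighbours on a chromosome lay a median of 1690 kb apart, and 13 of 744 neighbouring pairs were within 10 kb.

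**Figure D3:**
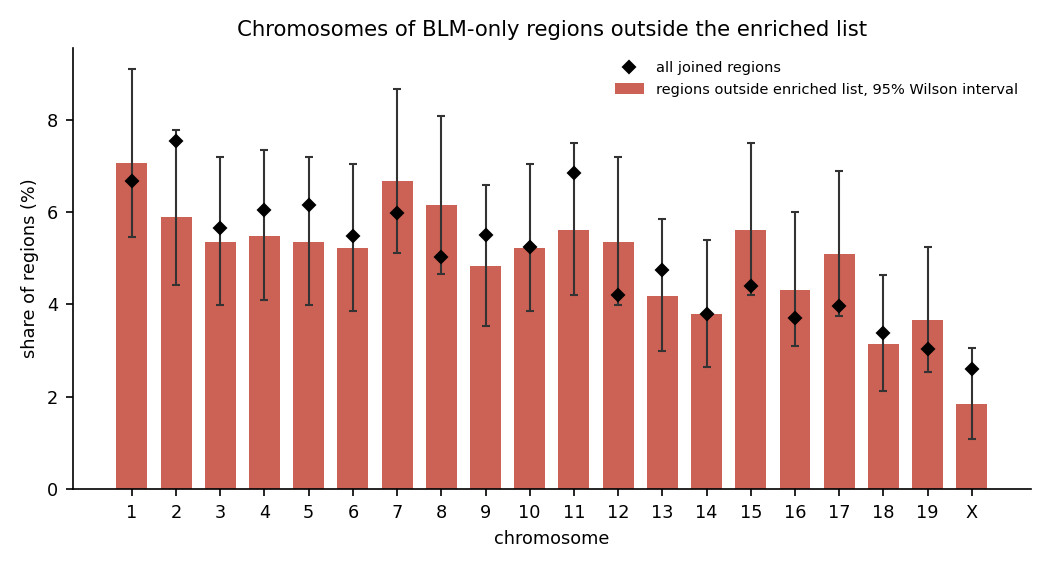
Share of the 765 regions on each chromosome (red bars, %, with 95% Wilson intervals) and of all joined regions (black diamonds). Every diamond lies inside its interval, and X has the lowest bar (14 regions) and chromosome 1 the highest (54 regions).

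A larger share of the 765 regions than of all regions outside the list lay within 10 kb of an enriched region, and regions directly beside an enriched interval made up part of this. Within 1 kb of an enriched interval lay 12 (1.57%, Wilson interval 0.900 to 2.72), against 0.366% of all 62346 regions outside the list. Within 10 kb lay 32 (4.18%, 2.98 to 5.85), against 2.12%. Without the regions that had an enriched interval within 500 bp, 22 of 755 (2.91%) lay within 10 kb, against 1.94% of all such regions and 2.98% of those of 1 BLM library only. At larger distances the shares came together, with 15.8% against 13.9% within 100 kb and 61.0% against 62.0% within 1 Mb. The median distance was 641 kb.

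The other calls outside the list differed in the same range of distances. Regions of 1 BLM library only had 1.22% within 1 kb and 3.59% within 10 kb, which is close to the 765. Regions of 1 CTRL and 1 BLM library had 0.306% and 2.14%. CTRL-only regions had 0.113% and 1.13%, the lowest of the sets. The 32 regions within 10 kb were no higher than the rest, with a median mean percentile of 24.7 against 32.3.

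**Figure D4:**
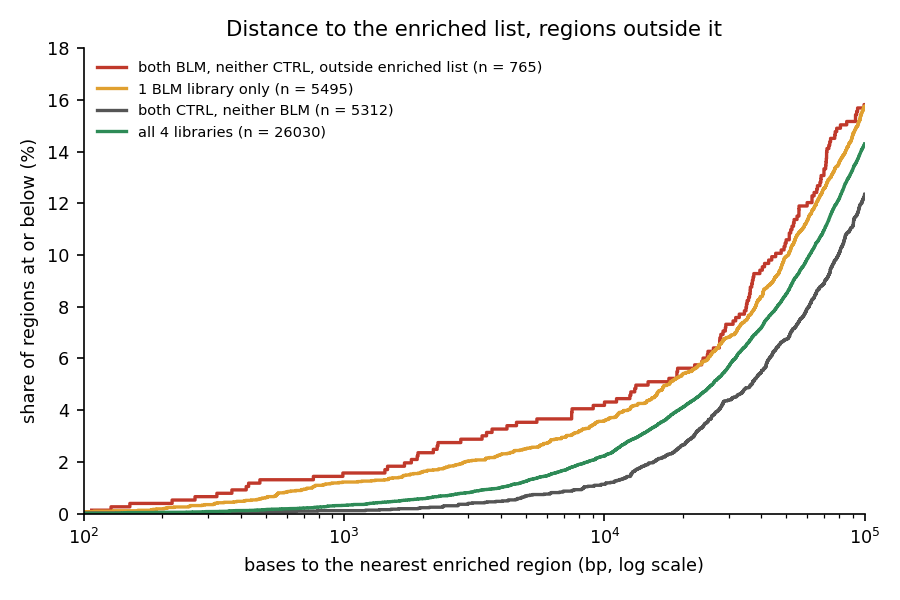
Share of regions outside the enriched list (y axis, %, cut at 18) that lie within a distance of the nearest enriched region (x axis, bp, log scale). At 10 kb the 765 regions (red) stand at 4.18%, regions of 1 BLM library at 3.59%, regions of all 4 libraries at 2.22% and CTRL-only regions at 1.13%.

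The 5 smallest gaps to an enriched interval show what such neighbours look like. The region chr15:73620756-73621077 had fold enrichments of 3.58 and 6.70 and lay 107 bp from an enriched region at 21.7 and 15.3, which the gene table gives to *Ptp4a3*, a protein tyrosine phosphatase. The region chr15:12589529-12589879 (5.17 and 3.85) lay 127 bp from one at 8.58 and 7.19 near *Pdzd2*. The region chr8:92856303-92856545 (7.62 and 5.37) lay 150 bp from one at 25.5 and 30.6, which was also called in both CTRL libraries at 4.38 and 10.0. In all 3 the enriched neighbour was the higher in both libraries. The fourth, chr19:10917794-10918002 (7.09 and 7.99), lay 218 bp from an enriched region at 17.0 and 14.2 near *Ptgdr2*, a prostaglandin D2 receptor. The fifth, chr10:61424100-61424324 (6.88 and 7.11), lay 267 bp from one at 11.8 and 12.6 near *Npffr1*, a neuropeptide FF receptor.

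Over all 12 regions within 1 kb, the enriched neighbour was the higher in both BLM lists in 11. The exception was at *Olfr543*, an olfactory receptor gene, where the region outside the list had 3.98 and 7.73 and the enriched one 5.51 and 5.42. The enriched neighbours had median percentiles of 97.8 and 86.3, and 7 of the 12 were called in neither CTRL library. On the inner side of this limit, no BLM-only region shared only a few bases with the enriched list. The smallest overlaps were 135, 141, 142, 144 and 147 bp, each the whole width of its region. The height of these 5 was not unlike that of the 765, with fold enrichments of 4.59 to 7.04 in BLM replicate 1 and 5.03 to 6.56 in BLM replicate 2.

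The absence of a CTRL call is the other limit of the choice. The nearest CTRL peak lay a median of 5688 bp away (quartiles 908 and 18658 bp). It lay within 100 bp of 33 regions (4.31%) and within 1 kb of 196 (25.6%). For the 521 enriched BLM-only regions the median was 11695 bp, with 12.7% within 1 kb, and for regions of 1 BLM library only it was 4656 bp, with 32.3%. CTRL-only regions lay a median of 4313.5 bp from a BLM peak, with 23.4% within 1 kb. The 765 regions were thus nearer to CTRL peaks than the enriched ones. Against CTRL-only regions the distances are not on like terms, since the CTRL lists held more peaks than the BLM lists. The order also depended on the distance. Of CTRL-only regions, 1.66% had a BLM peak within 100 bp and 68.0% within 10 kb. Of the 765, 4.31% and 60.5% had a CTRL peak at these distances.

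Of the 196 regions within 1 kb of a CTRL peak, that peak belonged to a region also called in BLM for 155 (79.1%), with a median percentile of 46.9 in its own list over all 196. The 196 had a median mean percentile of 25.5, against 33.9 for the others. One region, chr7:92317954-92318170 (fold enrichments of 5.00 and 4.64), touched a CTRL peak with no shared base. The next 4 gaps were 3, 3, 7 and 9 bp, and these 4 regions had fold enrichments of 4.38 to 5.51 in BLM replicate 1 and 4.03 to 6.01 in BLM replicate 2. On the other side, the smallest overlaps of a region called in both BLM libraries with a CTRL peak were 9, 17, 18, 28 and 33 bp. These 5 regions had fold enrichments of 3.36 to 6.81 and 4.12 to 5.74 in BLM. The ranges of the 5 regions on each side overlapped, and that of the regions sharing bases with a CTRL peak was the wider in BLM replicate 1.

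**Figure D5:**
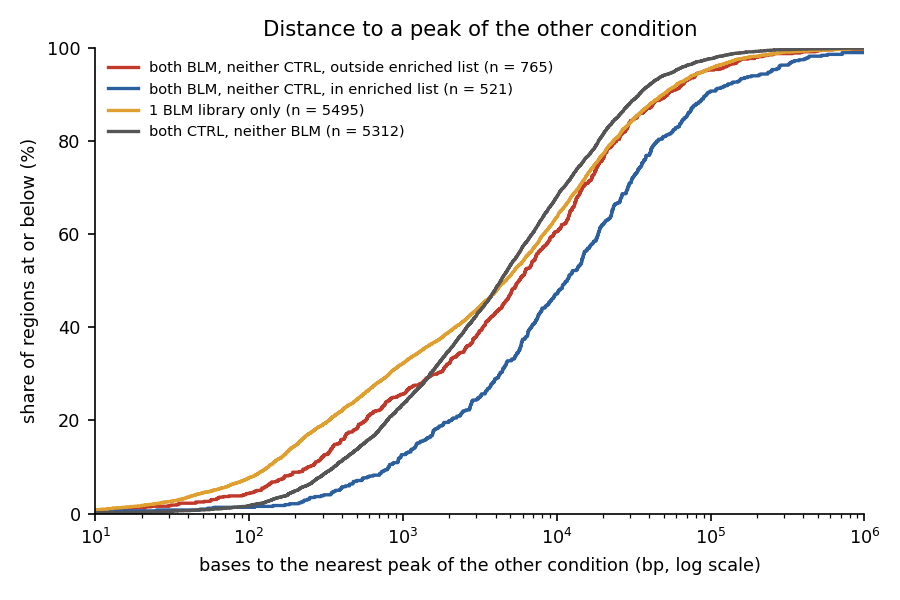
Share of regions (y axis, %) within a distance of the nearest peak of the other condition (x axis, bp, log scale): the nearest CTRL peak for the 3 BLM sets, the nearest BLM peak for CTRL-only regions. At 1 kb the curves stand at 25.6% for the 765 regions (red), 12.7% for the enriched ones (blue), 32.3% for regions of 1 BLM library and 23.4% for CTRL-only regions. The CTRL lists held more peaks than the BLM lists, so the CTRL-only curve is not on like terms with the others.

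Gene starts were placed on GRCm39 from the distances in the authors' gene table, which covers only genes assigned to an enriched region. For 185 genes with at least 2 such regions, the implied positions agreed within 10 bp. Of the 765 regions, 2 lay within 1 kb of one of these 185 TSS, 6 within 10 kb (0.784%) and 27 within 100 kb (3.53%). Of all regions outside the enriched list, 0.646% lay within 10 kb and 3.12% within 100 kb. For the 521 enriched regions, from which these TSS were derived, the share within 100 kb was 17.3%. The share of the 765 was thus close to the background. A wider set of 1362 genes, which uses gene order or strand for genes with a single enriched region, was added after seeing the data. With it, 13 regions (1.70%) lay within 1 kb, 33 (4.31%) within 10 kb and 144 (18.8%) within 100 kb, against 1.91%, 4.56% and 18.9% of all regions outside the list. In the wider set a TSS was covered by 0.261% of the 765 regions, 1.19% of all regions outside the list and 2.42% of those called in all 4 libraries. Wider regions cover a TSS more readily, and the median widths of these sets were 229, 345 and 589 bp, so these shares are not on like terms.

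The region nearest to one of the 185 TSS was the one at *Olfr543*. The next, chr1:106100444-106100810, lay 961 bp downstream of the TSS of *Phlpp1*, a phosphatase that acts on Akt, with fold enrichments of 6.77 and 8.54. It was among the higher regions of the set (percentiles 52.2 and 70.9) and lay 286 bp from a CTRL peak. The region at *Tmem132c* lay 6234 bp upstream of the TSS (7.89 and 5.81) and that at *Npffr1* 6947 bp upstream. Farther out came *Mbp*, myelin basic protein, at 14168 bp (6.20 and 8.48), and *Rgma*, a co-receptor for bone morphogenetic proteins, at 14260 bp (5.97 and 4.44). The region at *Epha4*, an ephrin receptor, lay 17164 bp upstream (5.00 and 5.71) and 370 bp from an enriched region at 19.7 and 9.84.

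Among p53 targets, *Btg2*, an antiproliferative gene, had the most of these regions nearby. The first, chr1:134002431-134002700, lay 4158 bp downstream of the TSS with fold enrichments of 5.05 and 4.94. The second lay 19045 bp downstream with 3.67 and 6.01, and the third 32914 bp downstream with 7.16 and 4.84. All 3 are on the downstream side, while both enriched regions of *Btg2* lie upstream, at −263 and −22003 bp from the TSS on mm10. Within 50 kb of this TSS the CTRL lists held 22 and 21 peaks and the BLM lists 25 and 25, of which the 3 regions described here account for at least 3 in each BLM list by the choice itself.

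The region at *Fas*, a death receptor, lay 5981 bp upstream of the TSS (5.00 and 5.36), by the wider set. *Fas* and *Btg2* were the only genes of the p53 panel with such a region within 10 kb or within 100 kb. The panel has 28 genes, of which 19 were in the gene table and 16 had a TSS, and 8 of the 16 had a region of this set within 1 Mb. Of all 1362 genes placed here, 34 (2.496%) had one within 10 kb, 172 (12.6%) within 100 kb and 751 (55.1%) within 1 Mb, so the panel's count within 1 Mb was near the background and its other counts are of 2 genes. For *Cdkn1a*, the gene of the cyclin-dependent kinase inhibitor p21, the nearest lay 401499 bp upstream (6.02 and 3.85), although 6 enriched regions lie within 100 kb of its TSS. For *Bbc3*, which encodes the apoptosis inducer Puma, it lay at 214870 bp, for *Sesn2*, a stress-induced inhibitor of mTORC1, at 207034 bp, and for *Ddit4*, another such inhibitor, at 156408 bp. For *Ephx1*, an epoxide hydrolase, it lay at 645139 bp, and for *Ei24* at 986401 bp. For *Mdm2*, *Bax*, *Ccng1*, *Phlda3*, *Gdf15*, *Aen*, *Plk2* and *Eda2r*, none lay within 1 Mb. Each of these 8 genes has at least 1 enriched region within 100 kb of its TSS.

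Of 18 genes of the TGF-β panel, 11 were in the gene table and 10 had a TSS. Of the 10, 1 had a region of this set within 10 kb, 2 within 100 kb and 6 within 1 Mb, beside the same shares of all placed genes (2.496%, 12.6% and 55.1%). *Tgif1*, a homeobox corepressor of TGF-β signalling, had a region 3285 bp downstream of its TSS (chr17:71155175-71155444, 4.38 and 4.73), and its enriched regions lie 16961 and 122769 bp downstream. This region was low in both BLM lists (percentiles 10.3 and 15.6) and lay 308 bp from a CTRL peak. *Smad3*, a signal transducer of TGF-β receptors, had one 86137 bp upstream (4.59 and 8.74), which was also the nearest to *Smad6*, an inhibitory Smad, at 177646 bp. The nearest region lay at 147850 bp for *Ctnnb1*, at 148500 bp for *Pdgfc* and at 149728 bp for *Sptbn1*. For *Itgb6*, *Ltbp2*, *Areg* and *Tgfa*, none lay within 1 Mb. Of the 7 AT2 marker genes, *Etv5* was the only one in the gene table, with its nearest region at 417367 bp. None of the marker genes of alveolar type 1 cells, fibroblasts or macrophages was in the gene table.

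With the wider set, further regions lay close to gene starts. They lay downstream of the TSS of *Fsip1* at 84 bp (4.78 and 6.77), of *Car2*, a carbonic anhydrase, at 269 bp (4.28 and 5.03), and of *Zfp280d* at 421 bp (4.86 and 4.64). Others were downstream of *Rps6kb1*, the S6 kinase, at 435 bp (3.71 and 5.49), of *Mcam*, a cell adhesion molecule, at 487 bp (4.78 and 5.62), of *Rap2a*, a small GTPase, at 582 bp (5.31 and 4.26), and of *Plxna4*, a semaphorin receptor, at 618 bp (4.28 and 6.58). The region at *Tmem163* lay 393 bp upstream (5.72 and 6.43). The region at *2610001J05Rik* lay 634 bp upstream (6.01 and 3.36). None of these had both percentiles above 50. The region at *Eci2*, 1047 bp upstream (7.96 and 6.81), did, with percentiles of 66.6 and 52.1. The nearest CTRL peak lay 11 bp from the region at *Zfp280d*, 126 bp at *Car2*, 264 bp at *Rps6kb1* and 339 bp at *Rap2a*. It lay at 340 bp for *Eci2*, 360 bp for *2610001J05Rik*, 376 bp for *Mcam* and 576 bp for *Plxna4*. For *Fsip1* it lay at 6383 bp and for *Tmem163* at 52324 bp.

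*Irx3*, an Iroquois homeobox transcription factor, had a region on each side of its TSS. The upstream one, at 1558 bp, had 7.21 and 6.24, and the downstream one, at 1937 bp, had 4.65 and 9.40. Both lay near CTRL peaks, at 108 and 349 bp. *Ier5*, an immediate early response gene, had 2 regions downstream at 25929 bp (5.61 and 4.71) and 73447 bp (6.19 and 7.03). The first lay 1811 bp from an enriched region. The gene table gives *Ier5* 3 enriched regions, from 23730 to 44093 bp downstream of its TSS.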

How the data were processed

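p53 ChIP-seq of mouse alveolar organoids (2 CTRL and 2 BLM libraries) was used as deposited, with samples grouped by the submitters' labels. Chromatin was fixed with formaldehyde and DSG and precipitated with the p53 antibody D2H9O. Per the submitters' processing notes, the tools were Trim Galore 0.6.7, Bowtie2 2.5.1, MACS3 3.0.0b1, DiffBind 3.8.4 and edgeR 3.40.2, with the builds mm39 and mm10. Which step used which tool, the control used for calling and the test behind the enriched list are not given in the sources used here.

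The authors called peaks in each library. The deposited values of a peak are a score, a fold enrichment over background (a ratio), and −log10 p and −log10 q. The authors also deposited the enriched intervals and a GREAT 4.0.4 gene table, whose positions match 909 of the 915 intervals and whose distances are on mm10. Peak positions are on GRCm39, as a contig name shows. No read counts were used, so the depth is unknown.

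Overlapping peaks (at least 1 bp) were joined with pandas 2.3.3, scipy 1.17.1 and numpy 2.4.6 under Python 3.11.15, and plotted in matplotlib 3.10.9. Joining was tested on simulated lists. Distances are between nearest edges. A TSS was implied by the middle of an enriched region and its distance. Genes with at least 2 regions had to agree within 10 bp, which 185 of 191 did. The wider set took the side of single regions from gene order in RefSeq GRCm38.p6 (right in 333 of 337 cases with a known answer) or from strand (141 of 144). Regions were named by fixed rules: the 10 highest, the 5 widest, the 5 nearest to each limit on both sides, the 10 nearest to a TSS, and those nearest to panel genes. Regions at *Ier5* were added outside these rules. Of the 185 genes, *Ier5* was the nearest to 1 named region, chr1:160134402-160134713, but at 5159019 bp. Regions near a TSS of the wider set were chosen after their values were seen. The members, panels and rules were chosen with earlier results of these data known. With 2 libraries in each group, 0.333 is the smallest two-sided p that exact permutation allows, so none was run. Since the sources do not say which libraries come from which mouse, the spread between libraries may be technical. The alternatives tried were a stricter calling limit (−log10 q of 5), a minimum overlap of 50% of the shorter peak, equal lists, 500 bp margins, each library left out in turn, ranks by −log10 q, and other TSS sets and distances.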

Additional observations from a re-analysis of the deposited data

How the results depend on the processing

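The choice of regions moved with the calling. With a −log10 q of at least 5 there were 606 regions, of which 356 (46.5%) were among the 765, with a median width of 238 bp and median percentiles of 31.3 and 30.003 in BLM replicates 1 and 2. With a minimum overlap of 50% of the shorter peak there were 753 (704 of them among the 765), with a width of 226 bp and a percentile of 32.0 in BLM replicate 2. With lists of equal length (39577 peaks each), 1496 regions qualified, including 706 of the 765, with a median width of 252.5 bp. With no CTRL peak within 500 bp, 625 remained, with a width of 226 bp and percentiles of 34.4 and 33.4. With no enriched interval within 500 bp, 755 remained, and the share within 10 kb of an enriched region fell from 4.18% to 2.91%. Leaving out 1 library loosens the rule by construction. The count then ran from 1534 (without CTRL replicate 2) to 3800 (without BLM replicate 1), with 1878 without CTRL replicate 1 and 3384 without BLM replicate 2. The width ran from 159 to 248 bp, and the percentile from 25.4 to 32.1 in BLM replicate 1 and from 24.5 to 33.8 in BLM replicate 2. Ranked by −log10 q, the median percentiles were 28.2 and 27.9. The share within 100 kb of a TSS was 3.53% with 185 genes, 16.9% with gene order added, and 18.8% with order and strand (added after seeing the data), and 0.784% within 10 kb and 15.0% within 1 Mb of the 185. The other of the 77 alternative values, 48 in all, moved by less than the limits set for them.

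With the replicate numbers as a block (each BLM library set against the CTRL library of the same number), the count was again 765, since the rule asks for absence in both CTRL libraries. Over the 26316 regions called in all 4 libraries, the replicate differences in percentile of CTRL and BLM correlated at 0.00986. This cannot decide whether libraries of the same number share a mouse, since the size of a mouse effect on these ranks is not known. The planned search for the p53 motif in the regions was not run, since no GRCm39 sequence was used here. The lists limit what can be said in 3 ways: a region with no CTRL call may hold signal under the calling limit, heights are comparable only by rank, and the TSS set holds only genes with an enriched region.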

Other observations

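In 5 of the 765 regions (0.654%), −log10 q ranked more than 25 percentile points above fold enrichment in both BLM lists, against 2 of the 521 enriched BLM-only regions (0.384%). The first, chr10:11367796-11367988, had a −log10 q of 37.9 and 46.9 with fold enrichments of 5.38 and 6.42, and its summits coincided (0 bp apart). It was the only one of the 765 in the top 10% by −log10 q of either BLM list, and the nearest CTRL peak lay 148155 bp away. The second, chr8:3804371-3804528, had a −log10 q of 13.1 and 18.6 with fold enrichments of 3.46 and 4.26. The third was the region on the unplaced contig Un_JH584304v1 (59015 to 59236), with a −log10 q of 10.5 and 12.2 and fold enrichments of 3.29 and 3.49, which lay 186 bp from a CTRL peak and 429 bp from an enriched region called in all 4 libraries. The others were chr16:91331455-91331612 and chr1:88215337-88215535, with a −log10 q of 9.29 and 13.8 and of 11.5 and 8.69. In all 5 the summits of both BLM peaks lay within 16 bp of each other, against a median of 37 bp over the 765 regions. These regions were chosen after their values were seen.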
